A study of Homo sapiens with 4 samples.

Results

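The genes described here encode the nuclear subunits of respiratory complexes I, III, IV and V. They were taken by symbol, as genes with a probe set of their own whose names begin with NDUFA, NDUFB, NDUFC, NDUFS or NDUFV and a number, UQCR, COX4 to COX8, or ATP5, without assembly factors, pseudogenes and readthrough genes. Of 18132 genes measured, 79 met this rule, 35 of complex I, 8 of complex III, 17 of complex IV and 19 of complex V. The Rieske protein gene UQCRFS1 was not analysed here. OE33, an established line of human oesophageal adenocarcinoma cells, was grown with 15% serum and, 24 hours after plating, transfected with a final 50 nM of siRNA. The knockdown group received a commercial pool of siRNAs against ARID1A, a subunit of SWI/SNF chromatin remodellers, and the mock group received a commercial non-targeting siRNA pool. Cells were harvested 48 hours after transfection, and total RNA of 2 biological replicates per group was measured on 4 Affymetrix PrimeView arrays, to look for genes that act downstream of ARID1A. The design covers 1 cell line, 1 time and transient siRNA pools. The labels call the replicates biological without saying whether cultures were separate, so p-values measure the spread between these samples.

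The respiratory chain sits in the inner mitochondrial membrane. Complex I takes electrons from NADH, complex III passes them from ubiquinol to cytochrome c, and complex IV hands them to oxygen. All of them pump protons, and complex V, the ATP synthase, uses the resulting gradient to make ATP. Most subunits are encoded in the nucleus and imported, while the proton-pumping cores of complexes I and IV and a few other subunits are encoded by mitochondrial DNA. Several complex IV subunits exist as a ubiquitous form and a form restricted to muscle, lung or testis.

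ARID1A itself measured 7.53 on both knockdown arrays against 9.28 and 9.33 in mock cells on the log2 scale. The targeted mRNA was therefore lower in both libraries labelled knockdown (log2 change -1.78, SE 0.0718, limma adjusted p = 0.0218). Array medians lay between 5.89 and 5.93. The 5 epithelial markers KRT8, KRT18, KRT19, EPCAM and CDH1 ran from 11.99 to 14.58 over the 4 arrays, while 13 markers of mesenchymal, leukocyte, endothelial and striated muscle cells ran from 3.03 to 6.62, and none of the 18 passed the test. For the actin control, the excess of the 3′ over the 5′ signal was 1.10 to 1.21 log2 units in knockdown and 0.995 to 1.04 in mock arrays. For the GAPDH control it was 0.201 and 0.215 in knockdown and 0.199 and 0.211 in mock arrays. The actin measure of RNA integrity moved with the groups and the GAPDH measure overlapped, and the part of RNA integrity in the differences below was not tested.

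One respiratory subunit gene, COX6A1 of complex IV, fell in the knockdown cells, and no other subunit gene passed the test. The call rule was a Benjamini-Hochberg adjusted p under 0.05 in limma over all 49293 probe sets, which called 0.403% of all genes (0.215% lower and 0.188% higher). A single call among 79 is therefore a result about COX6A1 and not about the group. At an unadjusted p under 0.05, 1 subunit gene was higher (NDUFB4) and 2 were lower (COX6A1 and NDUFA11), against 9.76% of all genes higher and 7.25% lower. By count these shares of the subunit genes were not above those of all genes. With a spread prior that follows the level (limma's trend option), the share of higher subunit genes was above that of all genes, as given below. Of the 79, 57 showed positive and 22 negative log2 changes, the median being 0.03 and the interquartile range 0.105. Over all genes 48.6% were positive, the median was 0.00 and the interquartile range 0.198. Both knockdown arrays lay above both mock arrays for 33 subunit genes and below them for 13, against 25.8% and 23.6% of all genes, and the groups overlapped for 33. Apart from COX6A1 the changes ran from -0.29 (NDUFA11) to 0.26 (NDUFB4). The 95% confidence intervals of 78 genes lay within a 1.5-fold change in either direction, as did those of 93.2% of all genes. The bulk values cannot tell fewer cells that express a gene from less of its RNA per cell, and normalization to a common distribution hides any change in total mRNA.

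**Figure D1:**
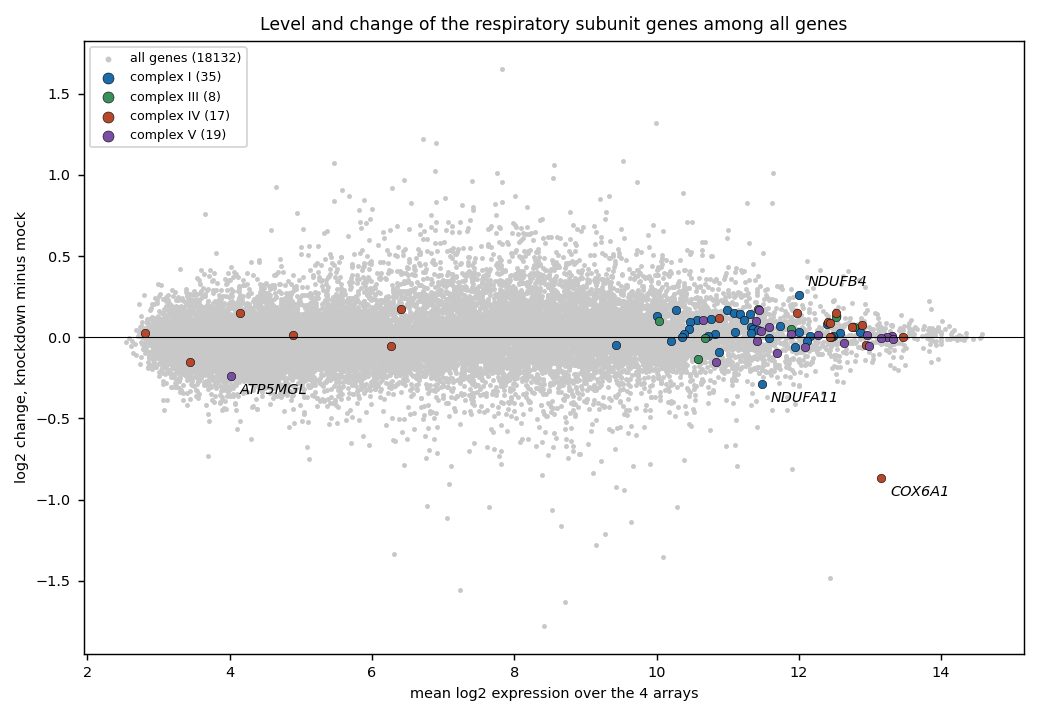
Log2 change of every gene (knockdown minus mock, vertical axis) against its mean log2 expression over the 4 arrays (horizontal axis), with 18132 genes in grey and the 79 subunit genes coloured by complex. Most subunit genes lie close to 0 at mean levels of 9 or more, and COX6A1 lies apart from them at -0.87.

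The plot of level against change shows 72 subunit genes with a mean level of 9 or more and 7 with a mean level under 7. The dim ones were COX4I2, COX6A2, COX6B2, COX7A1, COX7B2, COX8C and ATP5MGL, all paralogues with restricted expression. Probe sets differ in their response, so these levels are not ranked between genes.

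Complex IV, cytochrome c oxidase, held the one subunit gene that changed. COX6A1 encodes the ubiquitous form of subunit VIa, a small transmembrane subunit at the surface of the enzyme. Its main probe set measured 12.75 and 12.69 after knockdown against 13.62 and 13.55 in mock cells. Both knockdown values lay below both mock values, and the gap was far wider than the spread of the replicates. The group means were 12.7 ± 0.041 and 13.6 ± 0.0515 (SD, n = 2 each), a 1.82-fold fall (log2 change -0.87, SE 0.0754, 95% confidence interval -1.05 to -0.68, limma adjusted p = 0.0337). This left 54.9% of the mock level (48.2% to 62.5%). By size of fall COX6A1 ranked 19 among all 18132 genes.

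The fall of COX6A1 rests on a single probe set. Its name ends in _s_at, which marks probes that can also match other transcripts, and the RefSeq table lists 6 COX6A1 pseudogenes. The other probe set of COX6A1 measured 5.09 and 4.92 in knockdown and 4.93 and 5.39 in mock arrays. These groups overlapped (log2 change -0.16, 95% confidence interval -0.56 to 0.24, adjusted p = 0.681), so the unshared probe set gave no call. The interval leaves out the -0.87 of the main probe set. This dim probe set lay below the median of every array, where a change can be understated. Dim probe sets of ARID1A differed in this. One measured 4.66 and 4.44 in knockdown and 5.84 and 6.00 in mock arrays (-1.37), and another had a change of 0.11. Whether the dim COX6A1 probe set could have shown the fall was not tested. With both probe sets averaged the change was -0.51 (adjusted p = 0.0450, here over 18132 genes). That average includes the bright probe set and is no separate measurement. With any 1 of the 4 arrays left out the change stayed between -0.90 and -0.83, but no probe set, ARID1A included, passed the test on 3 arrays.

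The upstream sequences of COX6A1 and of its muscle paralogue COX6A2 are shown because the first of this pair fell and the second did not pass the test, and those of NDUFA11 and NDUFB4 because they were the next subunit genes by p. Each runs 5′ to 3′ over the 250 bases before the RefSeq gene start (GRCh38.p14). Capitals mark the letters GCATGCGC, a core of the binding motif of nuclear respiratory factor 1, and CCGGAAG, a motif of ETS factors such as GABPA, on either strand. The COX6A1 stretch is chr12:120437863-120438112 on the plus strand, that of COX6A2 is chr16:31428361-31428610 on the minus strand, that of NDUFA11 is chr19:5903791-5904040 on the minus strand and that of NDUFB4 is chr3:120596086-120596335 on the plus strand.
COX6A1: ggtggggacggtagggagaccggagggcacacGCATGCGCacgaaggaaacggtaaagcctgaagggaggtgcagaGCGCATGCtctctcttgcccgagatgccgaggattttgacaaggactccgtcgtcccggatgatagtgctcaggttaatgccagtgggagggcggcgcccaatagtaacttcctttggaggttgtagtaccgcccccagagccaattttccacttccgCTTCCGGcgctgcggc
COX6A2: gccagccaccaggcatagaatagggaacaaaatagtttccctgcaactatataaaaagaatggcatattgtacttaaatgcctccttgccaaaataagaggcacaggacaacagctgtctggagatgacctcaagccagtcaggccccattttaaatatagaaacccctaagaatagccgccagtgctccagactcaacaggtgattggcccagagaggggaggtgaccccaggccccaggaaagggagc
NDUFA11: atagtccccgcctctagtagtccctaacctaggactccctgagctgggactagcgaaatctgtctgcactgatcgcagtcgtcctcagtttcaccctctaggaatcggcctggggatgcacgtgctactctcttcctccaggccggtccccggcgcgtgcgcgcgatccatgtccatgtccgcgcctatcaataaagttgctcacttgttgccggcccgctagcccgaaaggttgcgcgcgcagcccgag
NDUFB4: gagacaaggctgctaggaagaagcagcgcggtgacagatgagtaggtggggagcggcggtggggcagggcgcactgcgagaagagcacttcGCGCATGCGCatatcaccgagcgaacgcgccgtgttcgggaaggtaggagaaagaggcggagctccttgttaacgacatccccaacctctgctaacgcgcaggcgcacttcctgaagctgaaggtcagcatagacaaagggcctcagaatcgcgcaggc

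The COX6A1 stretch held the nuclear respiratory factor 1 core at 2 places, 218 to 211 and, on the opposite strand, 174 to 167 bases before the start, and the ETS motif on the opposite strand 16 to 10 bases before it. The NDUFB4 stretch held that core on both strands in 2 overlapping matches that span 159 to 150 bases before its start. None of these letters, nor those of the YY1 motif AAGATGGCG, were found in the stretches of COX6A2 and NDUFA11. The COX6A2 stretch had 1 CG dinucleotide and 49.2% G and C, against 19 and 60.0% for COX6A1. RefSeq windows from 250 bases before to 50 after the start were matched for 65 of the 79 subunit genes. The ETS letters CCGGAAG were in those of 19 genes (29.2%), against 12.2% of 27305 genes in the table. The core GCATGCGC was found for 12 (18.5% against 3.68%) and the YY1 letters AAGATGGCG for 8 (12.3% against 2.14%). Longer forms, searched first, gave fewer matches, namely 3 genes for the core preceded by GC (4.62% against 1.52%) and 7 for the YY1 letters followed by G (10.8% against 1.46%). Upstream of the start, the median window of a subunit gene held 16.5 CG dinucleotides against 11 over all windows, with a median G and C content of 58.2% against 58.0%. All were searched on both strands, and a match is no evidence that a factor binds there. COX6A1, which fell, and NDUFB4, which did not pass the test, both carry a nuclear respiratory factor 1 core. Any relation of the core to the changes was not tested.

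Among the other 16 complex IV genes, changes ran from -0.15 (COX8C) to 0.17 (COX6A2), 13 were positive and none passed the test. The median over all 17 was 0.06. COX5A, which lies on the matrix side of the enzyme, measured 12.61 and 12.60 in knockdown and 12.50 and 12.41 in mock arrays (log2 change 0.15, adjusted p = 0.400). COX6C measured 12.01 and 12.09 against 11.91 and 11.89 (0.15, adjusted p = 0.387). The SDs were 0.00799 in knockdown and 0.0588 in mock for COX5A, and 0.0532 and 0.0114 for COX6C. Both genes were higher in each knockdown array than in either mock array, and neither passed the test. With a spread prior that follows the level both did (adjusted p = 0.0414 for COX5A and 0.0468 for COX6C). That setting also called the most probe sets over the whole array. The remaining ubiquitous subunits COX4I1 (0.00), COX5B (0.10), COX6B1 (0.06), COX7A2 (0.08), COX7B (0.09), COX7C (0.00) and COX8A (-0.05) differed between the groups by 0.10 log2 units or less. COX7A2L, which helps to join complexes III and IV in supercomplexes, had a change of 0.12 (adjusted p = 0.475).

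None of the 6 tissue-restricted paralogues passed the test. COX6A2, the heart and skeletal muscle form of subunit VIa, measured 6.61 and 6.36 in knockdown and 6.24 and 6.39 in mock arrays. The groups overlapped (log2 change 0.17, 95% confidence interval -0.11 to 0.45, adjusted p = 0.509). COX4I2, the lung form of subunit IV, had a change of 0.01 and COX7A1, the muscle form of subunit VIIa, one of 0.15 (adjusted p = 0.415). The testis forms COX6B2, COX7B2 and COX8C had changes of -0.06, 0.02 and -0.15. These 6 probe sets measured between 2.77 and 6.61, where a change can be understated, although those of COX6A2 and COX6B2 lay above every array median. The complex IV subunit formerly called NDUFA4 stands on the array as COXFA4 and falls outside the rule. It had a change of 0.08 (adjusted p = 0.649), and its hypoxia-induced paralogue COXFA4L2 one of -0.03 (0.940). A further paralogue, COXFA4L3, measured 8.01 and 7.93 in knockdown and 7.74 and 7.53 in mock arrays, without overlap (0.33, adjusted p = 0.200).

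**Figure D2:**
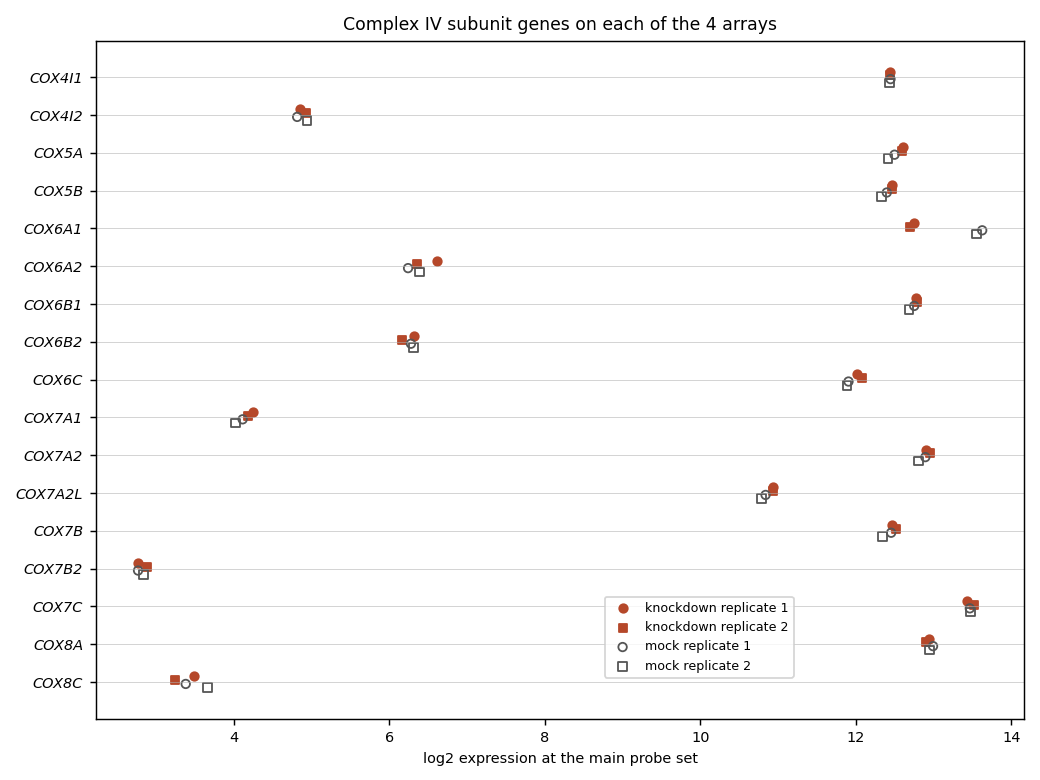
Log2 expression of the 17 complex IV subunit genes at the main probe set (horizontal axis), with filled symbols for the 2 knockdown arrays and open symbols for the 2 mock arrays. COX6A1 is the one gene whose knockdown symbols (12.75 and 12.69) stand clearly apart from its mock symbols (13.62 and 13.55).

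Complex I, the NADH dehydrogenase, is the largest of the complexes. Of its 35 genes 28 showed positive changes, the median was 0.03 and the range -0.29 to 0.26, and none passed the test. In 17 genes both knockdown arrays lay above both mock arrays and in 4 they lay below, while the groups overlapped in 14, against 25.8% of all genes above and 23.6% below. NDUFA11, a membrane subunit needed for the stability of the complex and of supercomplexes, measured 11.31 and 11.35 in knockdown and 11.63 and 11.61 in mock arrays. The groups did not overlap, with SDs of 0.0317 in knockdown and 0.0136 in mock and a log2 change of -0.29 (95% confidence interval -0.47 to -0.11, adjusted p = 0.162). Its other probe set had a change of -0.23 (adjusted p = 0.269), in the same direction. NDUFA11 passed the test in 2 alternative fits, with dim probe sets left out (adjusted p = 0.0415) and with a spread prior that follows the level (0.00262). Both fits called many more probe sets over the whole array than the main one.

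NDUFB4, a subunit of the membrane arm, measured 12.09 and 12.16 in knockdown and 11.90 and 11.83 in mock arrays. The groups did not overlap, with a log2 change of 0.26 (95% confidence interval 0.07 to 0.45, adjusted p = 0.201). It passed with the spread prior that follows the level (0.00499), the setting that called the most probe sets. A second probe set held identical values and is not a separate measurement, and a dimmer one had a change of 0.10. All probe sets of NDUFB4 have names ending in _s_at or _x_at, so the gene has no value on unshared probe sets. NDUFB7 and NDUFB5, also of the membrane arm, had changes of 0.17 each (adjusted p = 0.340 and 0.336), and NDUFB5 passed with that prior (0.0460). Of the 11 NDUFB genes 10 were positive with a median of 0.08, the exception being NDUFB10 at -0.09, while the 12 NDUFA genes had 8 positive and a median of 0.01.

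The nuclear core subunits of complex I form the arm in which flavin and iron-sulfur centres, held by most of them, move electrons from NADH to ubiquinone. All 6 measured had a small positive change and none passed the test. NDUFS1, the subunit with the most iron-sulfur centres, measured 10.03 and 10.09 in knockdown and 9.997 and 9.88 in mock arrays (log2 change 0.13, adjusted p = 0.499). NDUFS7, which carries the last iron-sulfur centre before ubiquinone, had a change of 0.10, NDUFS8 of 0.06 and NDUFS3 of 0.03. NDUFV1, the NADH-binding flavoprotein, had a change of 0.05 and its partner NDUFV2 of 0.01. The core median was 0.06, against 0.03 over the 29 accessory genes.

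**Figure D3:**
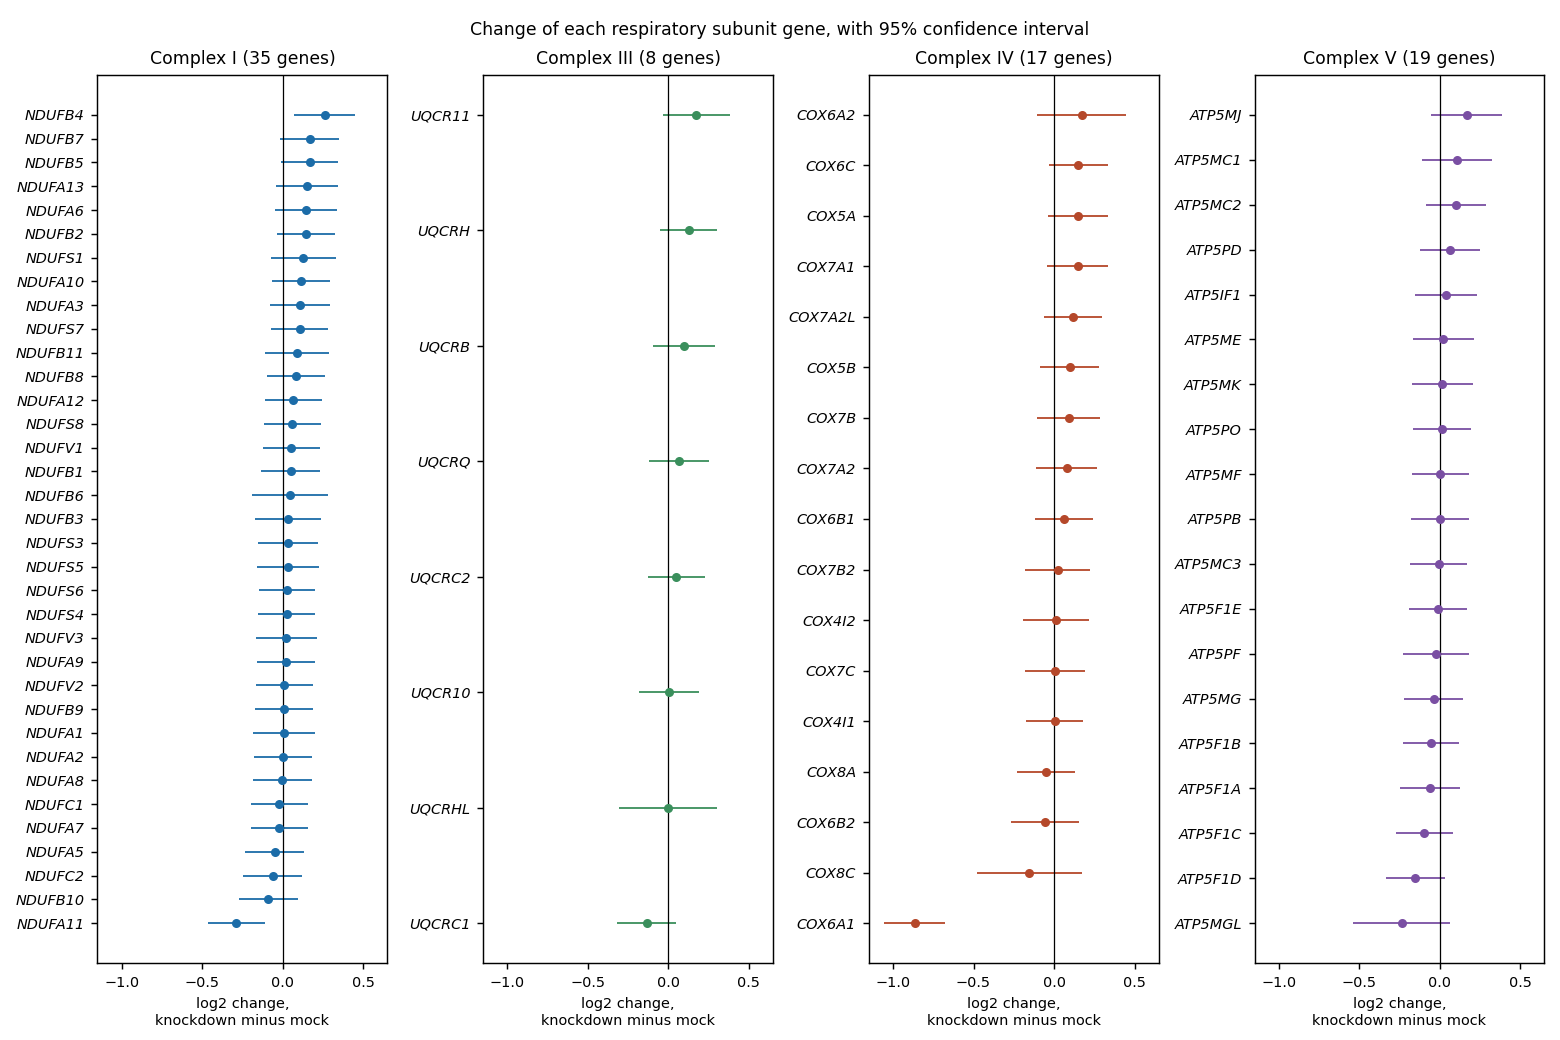
Log2 change of each of the 79 subunit genes (knockdown minus mock, horizontal axis) with its 95% confidence interval from limma, in 1 panel per complex and ordered by change. The intervals of COX6A1, NDUFA11 and NDUFB4 exclude 0, and COX6A1 alone passed the adjusted test.

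Complex III, the cytochrome bc1 complex, had 8 genes measured, of which 6 showed positive changes and none passed the test, and the median was 0.06. UQCRC1, a core protein on the matrix side, measured 10.53 and 10.50 in knockdown and 10.62 and 10.68 in mock arrays. Its groups did not overlap (log2 change -0.13, adjusted p = 0.429), and its other probe sets had changes of -0.19 and -0.03. Its partner core protein UQCRC2 had a change of 0.05. UQCR11, a small subunit of the complex, measured 11.46 and 11.56 against 11.40 and 11.28 (0.17, adjusted p = 0.382), while its other probe set had a change of -0.19. The hinge protein gene UQCRH had a change of 0.13 and, at its other probe set, of 0.33 (adjusted p = 0.295), and its retrogene UQCRHL, whose probe set can match UQCRH transcripts, one of 0.00. UQCRB, UQCRQ and UQCR10 had changes of 0.10, 0.06 and 0.00. The 2 other, dimmer probe sets of UQCRQ had changes of -0.25 (adjusted p = 0.195) and -0.15, and the 3 others of UQCRB lay between -0.08 and 0.00, all negative. When all probe sets of a gene were averaged in place of the brightest, the complex III median was -0.01.

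Complex V, the ATP synthase, had 10 of 19 genes positive, a median of 0.00 and no gene past the test. With unshared or averaged probe sets its median was -0.02. In 3 of its genes both knockdown arrays lay above both mock arrays (15.8%, against 25.8% of all genes), and in 6 they lay below (31.6%, against 23.6%). The 5 genes of the F1 catalytic head, the part that makes ATP, all had negative changes with a median of -0.06. ATP5F1D, the delta subunit of the central stalk, measured 10.73 and 10.78 in knockdown and 10.87 and 10.94 in mock arrays (log2 change -0.15, adjusted p = 0.387). ATP5F1C, the rotating gamma subunit, measured 11.65 and 11.64 against 11.76 and 11.72 (-0.10, adjusted p = 0.560). The alpha and beta subunits ATP5F1A and ATP5F1B had changes of -0.06 and -0.05 and the epsilon subunit ATP5F1E of -0.01. Knockdown lay below mock without overlap in 4 of these 5 genes (80%, against 23.6% of all genes), with changes of at most 0.15 log2 units. The groups overlapped at 3 other probe sets of ATP5F1A, at 2 of ATP5F1C, where 1 had a change of 0.01, and at 1 of ATP5F1D. Knockdown lay below mock without overlap at a further probe set of ATP5F1D (-0.08) and at the other one of ATP5F1B (-0.05).

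The peripheral stalk, which holds the head still, had changes of 0.06 (ATP5PD), 0.01 (ATP5PO), 0.00 (ATP5PB) and -0.02 (ATP5PF). The c-ring, the rotor in the membrane, is encoded by ATP5MC1, ATP5MC2 and ATP5MC3, which make the same mature protein from different precursors. Their changes were 0.11, 0.10 and -0.01 at the main probe sets. One dim probe set of ATP5MC3 stood apart, at 6.01 and 5.71 in knockdown and 6.80 and 6.63 in mock arrays. Its groups did not overlap (log2 change -0.86, SE 0.125, adjusted p = 0.0714), and it just missed the test, while the 3 brighter probe sets of ATP5MC3 had changes of -0.01, 0.01 and 0.04. This probe set was named after its value was seen. ATP5MJ, a small membrane subunit, had a change of 0.17 (adjusted p = 0.416), the other membrane subunits ATP5ME, ATP5MF, ATP5MG and ATP5MK lay between -0.04 and 0.02, and the dim ATP5MGL was at -0.24 (adjusted p = 0.408). ATP5IF1, the inhibitor that stops the enzyme from running backwards, had a change of 0.04.

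**Figure D4:**
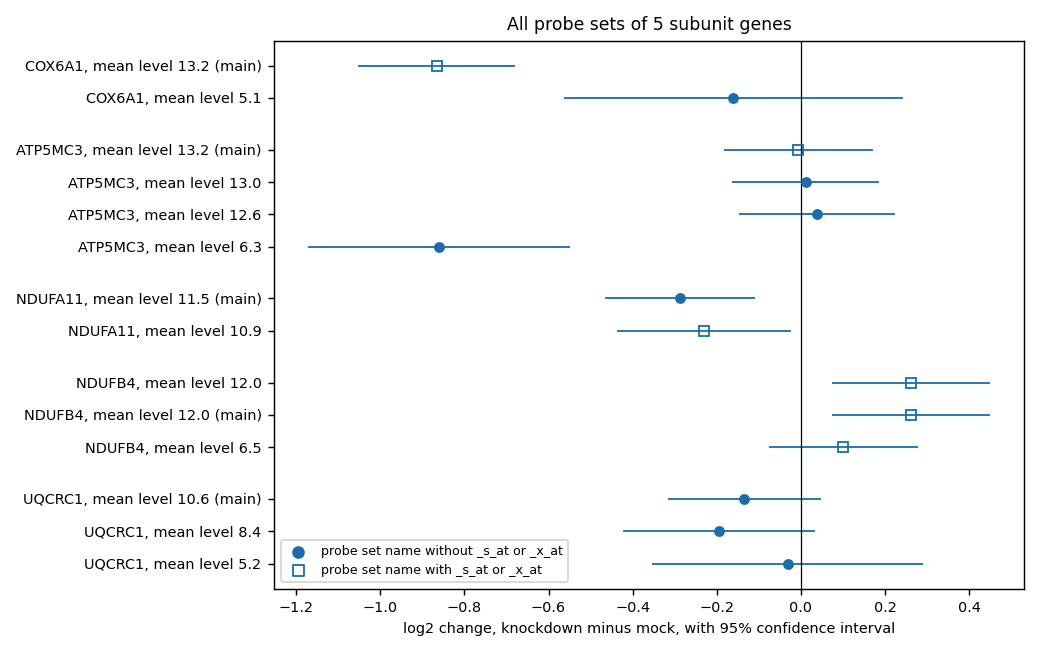
Log2 change of every probe set of COX6A1, ATP5MC3, NDUFA11, NDUFB4 and UQCRC1 (knockdown minus mock, horizontal axis) with 95% confidence intervals, in order of level within a gene and with open squares for names ending in _s_at or _x_at. For COX6A1 the bright probe set (-0.87) and the dim one (-0.16) differ, and for ATP5MC3 the dim one (-0.86) differs from the 3 brighter ones.

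Across probe sets the main values were repeated only in part. The 79 genes had 175 probe sets, 32 genes had only 1, and 34 main probe sets had names ending in _s_at or _x_at. Of the 47 genes with several, 19 had at least 1 of opposite sign, mostly a dim one. Of the 175, 1 passed the test, against 0.316% of all probe sets, and over the 100 probe sets without shared probes the median change was 0.02 and none passed in limma. At an unadjusted p under 0.05, 8 of the 175 were higher and 9 lower, against 9.10% and 7.07% of all probe sets.

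The small positive shift of the subunit genes moved with single arrays as well as with the groups. With each gene set against its own mean over the 4 arrays, the median deviation over the 79 genes was 0.00 in knockdown replicate 1, 0.03 in knockdown replicate 2, 0.01 in mock replicate 1 and -0.04 in mock replicate 2. Mock replicate 1 thus lay level with knockdown replicate 1, and mock replicate 2 was the lowest. Without mock replicate 2 the median change was 0.01 with 43 of 79 genes positive, and without knockdown replicate 2 it was 0.01 with 47 positive. Without knockdown replicate 1 it was 0.05 and without mock replicate 1 0.05, with 58 and 59 positive. The SD of the difference between replicates over the 79 genes was 0.0803 in knockdown and 0.0720 in mock, against 0.165 and 0.160 over all probe sets. By complex, the median deviations did not overlap between groups for complex IV (0.03 and 0.05 in knockdown, -0.01 and -0.01 in mock), where mock replicate 2 did not stand apart. Nor did they overlap for complex III (0.01 and 0.06 against 0.00 and -0.06) or the complex I core (0.03 and 0.03 against -0.01 and -0.05), both lowest in mock replicate 2. The same held by a narrow margin for all of complex I (0.0047 and 0.0318 against 0.0034 and -0.0452). It also held narrowly for the c-ring (0.0257 and 0.0464 against 0.0211 and -0.0960). Over all genes the median deviations overlapped. For the F1 head they did not overlap in the other direction (-0.04 and -0.03 against 0.04 and 0.03), and for complex V as a whole they did overlap.

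**Figure D5:**
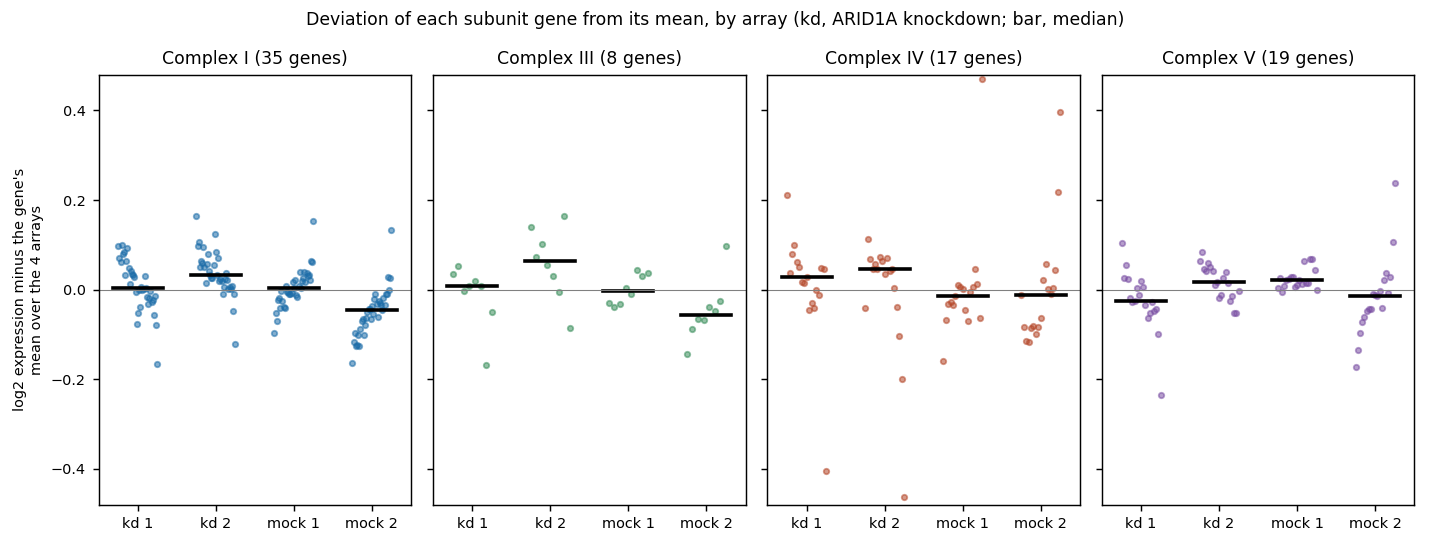
Log2 expression of each subunit gene minus its mean over the 4 arrays (vertical axis), by array and complex, with 1 point per gene in order of change and a bar at the median. The medians for complex I are 0.00 and 0.03 in knockdown and 0.00 and -0.05 in mock arrays, and the 4 points of complex IV farthest from 0 are COX6A1.

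Genes that build or feed the complexes showed no passing change outside complex II. Of 19 complex I assembly factors 11 showed positive changes, the median was 0.04 and none was at an unadjusted p under 0.05. Of 24 complex IV assembly factors 15 were positive with a median of 0.02, and COX10, which farnesylates haem for the enzyme, measured 7.82 and 7.71 in knockdown and 7.41 and 7.49 in mock arrays (log2 change 0.32, adjusted p = 0.167). COX14, another assembly factor, had a change of 0.23 (adjusted p = 0.227). Among 6 complex III assembly factors, UQCC3 measured 9.67 and 9.62 against 10.12 and 10.01 (-0.42, adjusted p = 0.110), and BCS1L, which inserts the Rieske protein, had a change of -0.22 (0.255). Of 5 complex V assembly factors TMEM242 had a change of 0.36 (adjusted p = 0.176) and TMEM70 of -0.22 (0.238).

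CYC1, the cytochrome c1 gene of complex III, which the symbol rule leaves out, had a change of 0.05, and the cytochrome c gene CYCS of -0.04. They stand in a list of 13 carriers and coenzyme Q synthesis genes, with 6 positive and none past the test, where COQ6 (0.24), PDSS2 (0.21) and COQ4 (-0.21) had the smallest p. Of 9 regulators of nuclear respiratory genes none passed, and the corepressor NRIP1 measured 9.50 and 9.73 in knockdown and 10.06 and 10.07 in mock arrays (-0.45, adjusted p = 0.129). The coactivator PPRC1 had a change of -0.23 (adjusted p = 0.220), PPARGC1B of -0.10 and NRF1 of 0.02. Among 10 genes of mitochondrial DNA maintenance and transcription none passed, and the transcription factor TFB2M measured 9.26 and 9.33 against 9.71 and 9.66 (-0.39, adjusted p = 0.110). The elongation factor TEFM had a change of -0.29 (adjusted p = 0.169), TFB1M of 0.27 (0.236) and TFAM of 0.02. Of 14 citrate cycle genes 8 were positive and IDH3B had the smallest p (-0.24, adjusted p = 0.211). In complex II, SDHD measured 9.35 and 9.47 in knockdown and 10.83 and 10.70 in mock arrays (log2 change -1.35, adjusted p = 0.0218), while SDHC had a change of -0.19 (0.279) and SDHA of 0.12 (0.494). Of the respiratory subunit genes analysed here, COX6A1 and SDHD were thus the 2 past the test, both on probe sets with names ending in _s_at. The other SDHD probe sets, some with identical values and all with names ending in _s_at or _x_at, had changes from -1.29 to -1.05. All of them passed the test, while the other COX6A1 probe set did not. SDHB was not analysed here.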

How the data were processed

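Total RNA of 4 OE33 samples was hybridised to PrimeView arrays, 2 per group, with groups and replicate numbers from the labels. The authors deposited 1 log2 value for each probe set and array. The submitters' processing notes name Partek and RMA without versions or roles. RMA sets arrays to a common distribution and can understate changes of dim probe sets. Precision is limited by the number of arrays.

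Of 49372 probe sets, 79 controls were left out and 49293 tested. The platform annotation gave 1 gene for 44988, several for 1832 and none for 2473, and no name was taken from the last 2 kinds. Each gene was represented by its probe set of highest mean level. Groups were compared in limma 3.58.1 under R 4.3.3 with lmFit and eBayes, two-sided and unpaired, with Benjamini-Hochberg adjustment over all probe sets and a threshold of 0.05. There were 2 residual and 3.62 prior degrees of freedom. Every adjusted p is limma's, and the procedure was tested on simulated data. Sequences came from RefSeq tables of GRCh38.p14.

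The subunit genes and gene lists were chosen with earlier results of these data known. Named genes were ARID1A, subunit genes past the test or at an unadjusted p under 0.05, the 2 largest rises and falls per complex, paralogues, core complex I genes, complex II, and up to 3 genes of smallest p per list, and the others were named after their values were seen. Alternatives changed the normalization, centring, dim filter (probe sets above the median of all mean levels only), replicate block, probe set choice, spread prior (limma's trend option) and replicates. Each alternative was adjusted over the probe sets it kept, or over genes where probe sets were averaged. Mitochondrially encoded genes were not analysed here.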

Additional observations from a re-analysis of the deposited data

How the results depend on the processing

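The direction of COX6A1 was the same in all settings tried, and its call was not. It passed with quantile normalization, centred arrays, the dim filter, averaged probe sets and a spread prior that follows the level. With unshared probe sets it was at -0.16 (limma adjusted p = 0.698), on its dim probe set alone. The replicate numbers are not stated to mark a shared culture or day, and deviations of same-numbered arrays had a correlation of -0.202. With the replicate block COX6A1 was at -0.87 (0.232) and ARID1A at -1.78 (0.217), and 0 probe sets and 0 subunit genes passed in limma, with 2154 genes at an unadjusted p under 0.05. With the block on crossed numbers, added after seeing the data, 0 probe sets and 0 subunit genes passed, COX6A1 at -0.87 (0.187) and ARID1A at -1.78 (0.187) included, with 3635 genes and 2 higher subunit genes at that unadjusted p. The cause of these losses was not tested, beyond the 1 residual degree of freedom that a block or a left-out array leaves.

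Against 156 probe sets past the test, 297 passed with quantile normalization, 671 with centred arrays, 2106 with the dim filter, 23 with unshared probe sets and 3209 with the prior that follows the level. Against 1 subunit gene, 2 passed with the dim filter (COX6A1 and NDUFA11), 0 with unshared probe sets and 6 with the prior that follows the level. Those 6 were COX6A1 and NDUFA11, lower, and NDUFB4, NDUFB5, COX5A and COX6C, higher. The settings that called more subunit genes also called more probe sets over the whole array, 3209 of 49293 with that prior. The 6 calls are therefore not read as a result about the group. At an unadjusted p under 0.05, the higher subunit genes were 3 of 74 with the dim filter (17.4% of all genes), 3 of 66 with unshared probe sets (9.21%), 5 of 79 with averaged probe sets (9.58%) and 18 of 79 with that prior (13.05%). Of these shares, only the last was above that of all genes. The lower ones were 1 of 66 with unshared probe sets (6.65% of all genes), 4 of 79 with averaged probe sets (7.55%) and 5 of 79 with that prior (9.19%).

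With 1 array left out, ARID1A ran from -1.80 to -1.75 and COX6A1 from -0.90 to -0.83 (adjusted p 0.244 to 0.521), 0 probe sets and 0 subunit genes passed in limma, 1722 to 2523 genes had an unadjusted p under 0.05, and 0 to 2 subunit genes were higher at that p. The lone array of a group is then assumed to vary like the other group. Medians ran from 0.0196 to 0.07 for complex I, 0.0305 to 0.112 for complex III, 0.04 to 0.09 for complex IV and -0.02 to 0.02 for complex V. The complex III median was -0.00613 with averaged probe sets, and the other medians moved by less than the replicate spread in the other settings. Over 33 other named subunit genes, 23 of 386 values changed sign and 4 passed the test. Counting NDUFA4 and NDUFA4L2 with complex I was not run, since the array lists them under other symbols.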
